A study of Homo sapiens with 6 samples.

Results

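The carcinoembryonic antigen-related cell adhesion molecules CEACAM1, CEACAM5, CEACAM6, CEACAM7 and CEACAM19 were followed in AsPC-1, an established human pancreatic cancer cell line. These 5 genes were taken by name from a table of 58735 genes. They were chosen with the difference between the groups already known, so their levels and fold changes are a description and carry no test. Cells of the Vector group (genotype WT, n = 3) carried an empty lentivirus, and cells of the OE-MMP28 group (n = 3) carried a lentivirus that overexpresses MMP28, a secreted matrix metalloproteinase. By the study's methods the MMP28 virus carried GFP and puromycin resistance and stable cells were selected with puromycin; whether the empty virus carried GFP was not stated. The labels do not say whether the 3 samples of a group were separate cultures, and the spread between them may be technical.

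CEACAM proteins are surface glycoproteins of the immunoglobulin superfamily that bind one another between neighbouring cells. CEACAM5, the carcinoembryonic antigen used as a serum marker of gastrointestinal cancers, CEACAM6 and CEACAM7 are held in the membrane by a glycosylphosphatidylinositol (GPI) lipid anchor. CEACAM1 and CEACAM19 span the membrane, and the long tail of CEACAM1 carries motifs that recruit the phosphatases SHP-1 and SHP-2. In epithelia of the gut and pancreas, CEACAM5 and CEACAM6 are commonly raised in tumors, and CEACAM7 is a gene of differentiated colon epithelium.

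Total counts were between 13633249 and 14985715 in the Vector group and between 15568066 and 16691458 in the OE-MMP28 group, and a count of 0 allowed up to 0.180 to 0.220 CPM (counts scaled by library size). Mitochondrial genes held 13.7% ± 1.62 (SD, n = 3) of Vector counts and 10.8% ± 1.71 of OE-MMP28 counts. Fitted without these genes, CEACAM5 differed by -3.82, CEACAM6 by -0.76, CEACAM1 by 0.39 and CEACAM19 by -0.64 (log2, OE-MMP28 minus Vector). With them the differences were -3.79, -0.73, 0.42 and -0.61. What the mitochondrial difference reflects was not tested. MMP28 stood at 5.17, 9.11 and 8.43 FPKM (fragments per kilobase of exon, scaled to the library total) in Vector and at 13.1, 13.9 and 15.1 FPKM in OE-MMP28. The groups did not overlap, and MMP28 rose by 0.90 (SE 0.19) on the log2 scale (adjusted p = 0.00226, quasi-likelihood test of edgeR, Benjamini-Hochberg adjusted; 4.08e-05 to 0.0166 over 16 other settings). All further adjusted p-values come from that test over 15319 genes. The epithelial markers EPCAM (313 ± 12.2 and 288 ± 35.6 FPKM) and KRT8 (975 ± 237 and 1289 ± 166 FPKM) were abundant. The 5 epithelial markers together held 2562 to 3498 FPKM in Vector and 3503 to 4294 FPKM in OE-MMP28, KRT19 rose by 0.71 (adjusted p = 0.00175), and KRT7 was low at 1.14 and 1.81 FPKM. Of 7 granulocyte markers, 4 were at 0 in all libraries and the sum did not exceed 0.079 FPKM. The sum of 4 leukocyte markers, mostly CD14, was 0.755 to 1.17 FPKM, and that of 3 endothelial markers was 0.044 to 0.293 FPKM, with a rise of PECAM1 by 2.79 (adjusted p = 0.00361) at 0.024 and 0.169 FPKM. Of 4 fibroblast markers, summing to 33.9 to 57.0 FPKM, nearly all was LUM. The part of these markers in the CEACAM values was not tested.

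All 5 genes lie on the long arm of chromosome 19 (GRCh38, GENCODE 29). CEACAM7 (chr19:41673307-41706976, minus strand), CEACAM5 (chr19:41708585-41729798, plus strand) and CEACAM6 (chr19:41750977-41772208, plus strand) are next to one another, with 1608 bases between CEACAM7 and CEACAM5 and 21178 between CEACAM5 and CEACAM6. CEACAM1 (chr19:42507304-42561234, minus strand) lies 735095 bases beyond CEACAM6. CEACAM19 (chr19:44662278-44684359, plus strand) is 2101043 bases further on. By these spans CEACAM7 and CEACAM5 are arranged head to head. The RefSeq starts used below lie inside the spans, beside chr19:41688271 for CEACAM7, chr19:41755529 for CEACAM6 and chr19:42528482 for CEACAM1. The 1608 bases therefore hold for the GENCODE 29 spans alone.

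Sequence before the RefSeq start (GRCh38.p14) is shown for CEACAM5, CEACAM6, CEACAM7 and CEACAM1 side by side. CEACAM7 had counts of 0 to 1 and so has no direction to compare. A link between these sequences and the levels was not tested. RefSeq sequences for 4 of the 5 members were matched, and CEACAM19 had no entry. Bases are counted back from the RefSeq start, from -1, and each sequence reads 5′ to 3′ on the strand of its gene. Capitals mark matches to 3 motifs searched on both strands: an E-box (CACGTG, bound by USF factors), a GC box (GGGCGG, bound by Sp1) and the core of an interferon-stimulated response element (GAAA, any 2 bases, GAAA; bound by interferon regulatory factors). The stretch from -250 to -81 is chr19:41708376-41708545 (plus) for CEACAM5, chr19:41755280-41755449 (plus) for CEACAM6, chr19:41688351-41688520 (minus) for CEACAM7 and chr19:42528562-42528731 (minus) for CEACAM1.
CEACAM5: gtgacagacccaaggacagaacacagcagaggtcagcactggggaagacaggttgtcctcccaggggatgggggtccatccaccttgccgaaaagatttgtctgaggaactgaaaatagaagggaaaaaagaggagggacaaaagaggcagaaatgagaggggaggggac
CEACAM6: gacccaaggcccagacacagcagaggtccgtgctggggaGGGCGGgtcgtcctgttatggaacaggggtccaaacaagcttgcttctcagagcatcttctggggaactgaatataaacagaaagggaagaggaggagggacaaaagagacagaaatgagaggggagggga
CEACAM7: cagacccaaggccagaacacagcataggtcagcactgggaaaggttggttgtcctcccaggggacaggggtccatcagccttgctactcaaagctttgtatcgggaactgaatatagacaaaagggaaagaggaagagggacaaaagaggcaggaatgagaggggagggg
CEACAM1: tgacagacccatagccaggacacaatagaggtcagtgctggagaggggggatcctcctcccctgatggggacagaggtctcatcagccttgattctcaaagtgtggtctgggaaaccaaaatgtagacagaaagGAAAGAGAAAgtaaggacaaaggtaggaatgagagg

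The 30 bases from -59 to -30 span the E-box of CEACAM5 and CEACAM6 and the same positions in CEACAM7 and CEACAM1. They are chr19:41708567-41708596 (plus) for CEACAM5, chr19:41755471-41755500 (plus) for CEACAM6, chr19:41688300-41688329 (minus) for CEACAM7 and chr19:42528511-42528540 (minus) for CEACAM1. GENCODE 29 begins some transcripts earlier than RefSeq, so 12 of these bases in CEACAM5 and all 30 in CEACAM6 and CEACAM7 are also exonic there, as are 29 bases of the longer CEACAM6 stretch and 17 of the longer CEACAM7 stretch above.
CEACAM5: cacacccatgaccCACGTGatgctgagaag
CEACAM6: ccgcacccatgaccCACGTGaccctgggaa
CEACAM7: accccacccctggaccatgtgatcttggaa
CEACAM1: acaaaccCCGCCCcagcacacatgatcaga

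Over the whole 250 bases, the E-box was found in CEACAM5 (-46 to -41) and CEACAM6 (-45 to -40). A GC box stood in CEACAM6 (-211 to -206) and, on the other strand as CCGCCC, in CEACAM1 (-52 to -47). CEACAM1 also held the response element core (-116 to -107). None of the 3 motifs was found in CEACAM7. These matches did not overlap. In the same window of 35116 promoters, the E-box occurred in 6.34%, the GC box in 42.6% and the response element core in 3.02%, and a match is no evidence of binding. The 4 windows resembled one another: identity over aligned bases was 84.0% between CEACAM5 and CEACAM7, 78.1% between CEACAM5 and CEACAM6 and 70.5% between CEACAM5 and CEACAM1, the lowest of the 6 pairs.

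Because the transcripts are related too, and a readthrough shares exons with CEACAM5 and CEACAM6, reads can be hard to place or to assign. Of all stretches of 50 bases in CEACAM5 transcripts, 16.3% also occurred in another family or readthrough transcript. Most were in the readthrough AC243967.1 (15.2%), which shares the same genomic exon bases, and 1.15% were in CEACAM6. For CEACAM6 and CEACAM1 the shares were 6.99% and 2.62%, and for CEACAM7 and CEACAM19 they were 0. At 150 bases they were 10.7% for CEACAM5 and 0.034% for CEACAM6. Exons of the antisense gene LIPE-AS1 cover 3.35% of CEACAM1 exon bases, and LIPE-AS1 had 5 to 16 counts in any library. Those of PVR, on the same strand, cover 2.33% of CEACAM19 exon bases. PVR had 538 to 1152 counts and CEACAM19 44 to 90. The read length, the use of strand and the handling of multiply mapped or overlapping reads were not given in the sources used here. Counts from near-identical or overlapping stretches are therefore uncertain.

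CEACAM5 showed the largest difference among the members. Its level was 114.6, 241.1 and 148.1 FPKM in Vector replicates 1 to 3 (counts 5869, 10920 and 7314) and 14.2, 14.6 and 7.54 FPKM in OE-MMP28 replicates 1 to 3 (counts 751, 773 and 425). The groups were far apart, although Vector replicate 2 stood above the other Vector libraries. The means were 168 ± 65.6 and 12.1 ± 3.94 FPKM (SD, n = 3), 13.9-fold lower in OE-MMP28, and the fitted difference was -3.79 (SE 0.26) on the log2 scale. By level, CEACAM5 ranked 241, 101 and 166 among all genes in Vector and 3159, 3058 and 5354 in OE-MMP28. Only 26 of 15319 genes had a lower fitted value.

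CEACAM6, which like CEACAM5 is GPI-anchored, was the most abundant member in all libraries. It stood at 431.5, 496.5 and 430.5 FPKM in Vector (counts 20136, 20481 and 19365) and 330.2, 267.5 and 218.0 FPKM in OE-MMP28 (counts 15939, 12944 and 11194). All OE-MMP28 libraries were below all Vector libraries. The means were 453 ± 37.8 and 272 ± 56.2 FPKM, 1.67-fold lower in OE-MMP28, with a fitted difference of -0.73 (SE 0.16) on the log2 scale. For CEACAM6, 1547 genes had a lower fitted value, against 26 for CEACAM5. In rank it moved from between 45 and 52 to between 73 and 129.

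CEACAM7, the third GPI-anchored member, had a count of 0 in all Vector libraries and counts of 0, 1 and 0 in OE-MMP28. It was at or below the 3-count limit in both groups, so no fold is given and no difference was detectable at this depth. Its neighbour CEACAM5, 1608 bases away, was among the most abundant genes in Vector by the ranks above.

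CEACAM1, a transmembrane member counted per gene, with its long-tail form not separated from others, differed in the other direction. It stood at 23.5, 32.7 and 26.7 FPKM in Vector (counts 1987, 2443 and 2172) and at 40.3, 35.2 and 34.6 FPKM in OE-MMP28 (counts 3520, 3083 and 3214). The groups did not overlap, although the highest Vector library and the lowest OE-MMP28 library were close. The means were 27.6 ± 4.67 and 36.7 ± 3.13 FPKM, a ratio of 1.33, with a fitted difference of 0.42 (SE 0.15) on the log2 scale. The sign was the same under all 16 settings tried, which gave 0.32 to 0.56.

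CEACAM19, the other transmembrane member, was the lowest of those with a fitted value. It stood at 0.603, 1.28 and 0.678 FPKM in Vector (counts 48, 90 and 52) and at 0.559, 0.533 and 0.560 FPKM in OE-MMP28 (counts 46, 44 and 49). Vector replicate 2 was well above all the others, which lay close together. The means were 0.854 ± 0.371 and 0.551 ± 0.0150 FPKM, with a fitted difference of -0.61 (SE 0.31) on the log2 scale. Without Vector replicate 2 it was -0.21, and with limma on log2(FPKM + 1), where the pseudocount exceeds most of its values, -0.24.

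**Figure D1:**
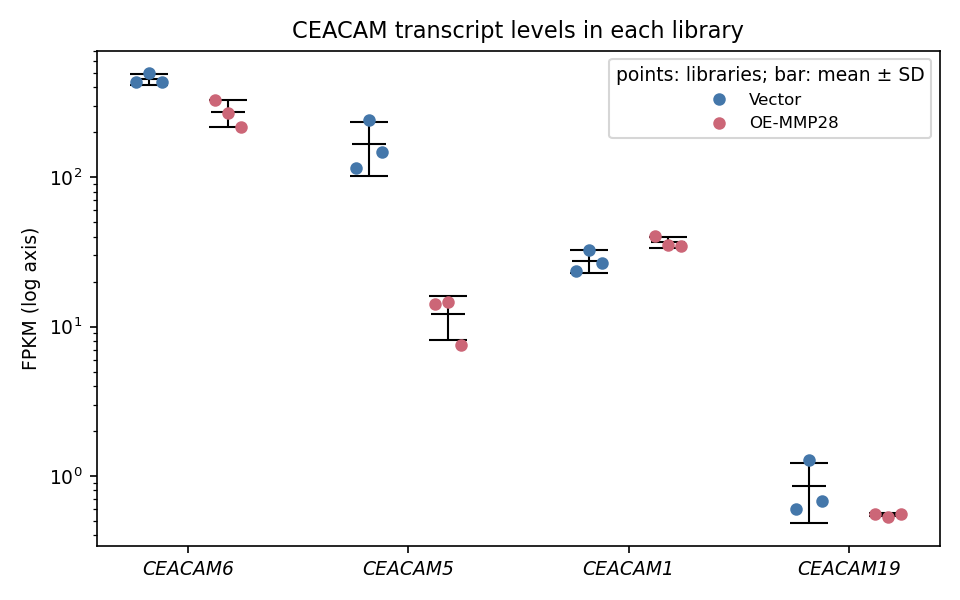
Level of each member in the 6 libraries, in FPKM on a log axis, with 1 point per library and bars for the mean ± SD; CEACAM7 is not drawn. CEACAM5 separates widely (168 and 12.1 FPKM on average), CEACAM6 and CEACAM1 more narrowly, and in CEACAM19 Vector replicate 2 stands apart at 1.28 FPKM.

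Of the 5 members, 4 passed the filter on low counts. In the edgeR test 2 of them, CEACAM5 and CEACAM6, passed an adjusted p of 0.05, both lower; 11.6% of all 15319 genes were called lower and 11.7% higher (23.4% in all). CEACAM5 also passed an absolute log2 difference of 1, as did 7.38% of all genes. On chromosome 19, 14.2% of 996 genes were called, 9.04% higher and 5.12% lower. All 4 members had groups that did not overlap, 3 of them with lower OE-MMP28 levels, beside 38.1% of all genes, 18.6% with lower levels. As the members were picked from this contrast, nothing is read from these counts. The median of the 4 fitted differences was -0.67, beside 0.0141 for all genes and 0.0718 for chromosome 19. In bulk RNA, a change in the share of cells that express a gene and a change in RNA per cell cannot be told apart.

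**Figure D2:**
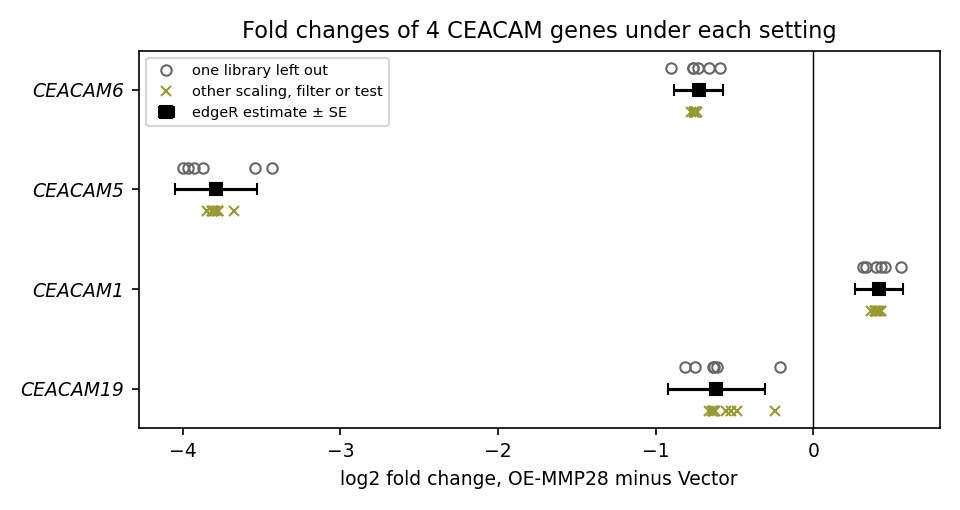
Fitted difference of each tested member (log2, OE-MMP28 minus Vector, with its SE) and its value under each alternative setting, with open circles for 1 library left out and crosses for the others. CEACAM5 lies at -3.79, CEACAM6 at -0.73, CEACAM19 at -0.61 and CEACAM1 at 0.42.

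Within a library, the balance between members differed between the groups. In Vector the order of levels per length was CEACAM6, CEACAM5, CEACAM1, CEACAM19, CEACAM7, and in OE-MMP28 CEACAM1 and CEACAM5 traded places; ranges of neighbours in the order did not overlap in either group. The ratio of CEACAM5 to CEACAM1 was 4.87, 7.37 and 5.55 in Vector and 0.352, 0.413 and 0.218 in OE-MMP28. On the log2 scale it was 2.55 ± 0.31 and -1.66 ± 0.48, a difference of -4.21 (SE 0.33). CEACAM5 was above CEACAM1 in each Vector library and below it in each OE-MMP28 library. The ratio of CEACAM5 to its neighbour CEACAM6, 0.265, 0.486 and 0.344 against 0.0429, 0.0544 and 0.0346, differed by -3.03 (SE 0.32). CEACAM6 to CEACAM1 stood at 18.3, 15.2 and 16.1 against 8.20, 7.60 and 6.30, a difference of -1.17 (SE 0.14). These ratios come from the same contrast and have no test.

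The summed FPKM of all CEACAM genes, the 5 members and the others, was 570.8, 771.9 and 606.2 in Vector and 385.6, 318.2 and 261.4 in OE-MMP28. CEACAM5 made up 25.2% ± 5.63 (SD, n = 3) of the sum in Vector and 3.71% ± 0.845 in OE-MMP28. CEACAM6 made up 70.3% ± 5.67 and 84.4% ± 1.16, and CEACAM1 4.25% ± 0.14 and 11.6% ± 1.46, although the level of CEACAM6 itself was lower. CEACAM19 held 0.128% ± 0.033 and 0.176% ± 0.035 of the sum.

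**Figure D3:**
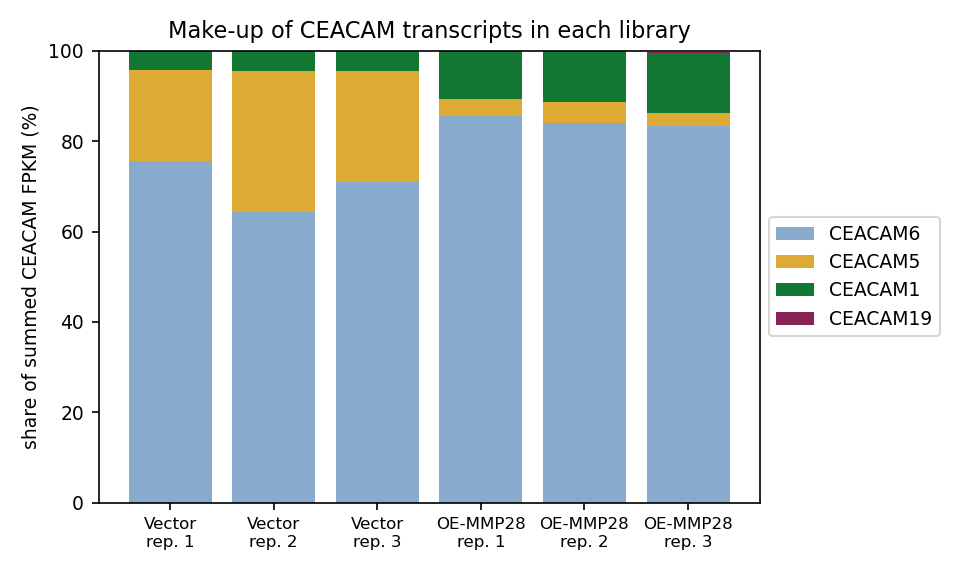
Share of each member in the summed FPKM of the CEACAM genes, by library (percent). CEACAM6 is the largest share in every library, and CEACAM5 holds 25.2% on average in Vector and 3.71% in OE-MMP28.

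Of the other family genes, 30 further CEACAM and pregnancy-specific glycoprotein (PSG) entries were examined, and 0 passed the filter. In 24 of these the count was 0 in all 6 libraries, and CEACAM18 had the most counts of the rest, with 10, 3 and 4 counts in Vector and 6, 9 and 14 in OE-MMP28. The granulocyte gene CEACAM8 had at most 2 counts in any library. The readthrough AC243967.1 runs from CEACAM5 into CEACAM6 (chr19:41708612-41761282, plus strand). Of its 716 exon bases, 544 are also CEACAM5 exon sequence (16.2% of it) and the other 172 are CEACAM6 exon sequence. The readthrough had 13, 15 and 11 counts in Vector and 2, 1 and 3 in OE-MMP28. It fell by 2.77 (SE 0.62) on the log2 scale (adjusted p = 0.00296; 0.000734 to 0.026 over 15 settings). The few readthrough counts in Vector stand beside 5869 to 10920 for CEACAM5. How they were assigned apart from CEACAM5 or CEACAM6 reads was not given in the sources used here. The readthrough test is therefore not read as a result separate from these members.

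Genes around the members were counted next. Of 55 other tested genes within 500 kb of a member, 3 rose and 3 fell, 10.9%, with a median of 0.046; the share called was 14.2% for chromosome 19 and 23.4% for all genes. This set counts the readthrough above among those that fell, although its exon bases all lie in member exons. B3GNT8, which extends N-glycans with N-acetylglucosamine and lies 244577 bases from CEACAM7, fell from 0.978 ± 0.251 to 0.175 ± 0.044 FPKM, by 2.43 (SE 0.46) on the log2 scale (adjusted p = 0.000868). Near CEACAM19, PVR, a nectin-like surface receptor sharing 121 exon bases with CEACAM19, rose from 13.5 ± 2.16 to 19.7 ± 0.936 FPKM (0.56, SE 0.16, adjusted p = 0.0150), and TOMM40, of the mitochondrial import pore, from 15.1 ± 4.06 to 24.6 ± 4.38 FPKM (0.71, adjusted p = 0.00959). ZNF285 rose (1.97, adjusted p = 0.00825) and ZNF233 fell (-1.12, adjusted p = 0.0450), both under 0.5 FPKM. ZNF233 lost its call in 10 of 16 settings, leaving out any single library included. PVR lost its call in 3 and TOMM40 and ZNF285 in 2 each, and the TOMM40 groups overlapped. Among the 11 genes nearest CEACAM1 and the 5 nearest CEACAM6, 0 passed. Calls in this set moved with the library left out: those rising numbered 1 without Vector replicate 3 or OE-MMP28 replicate 2 and 6 without OE-MMP28 replicate 1.

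**Figure D4:**
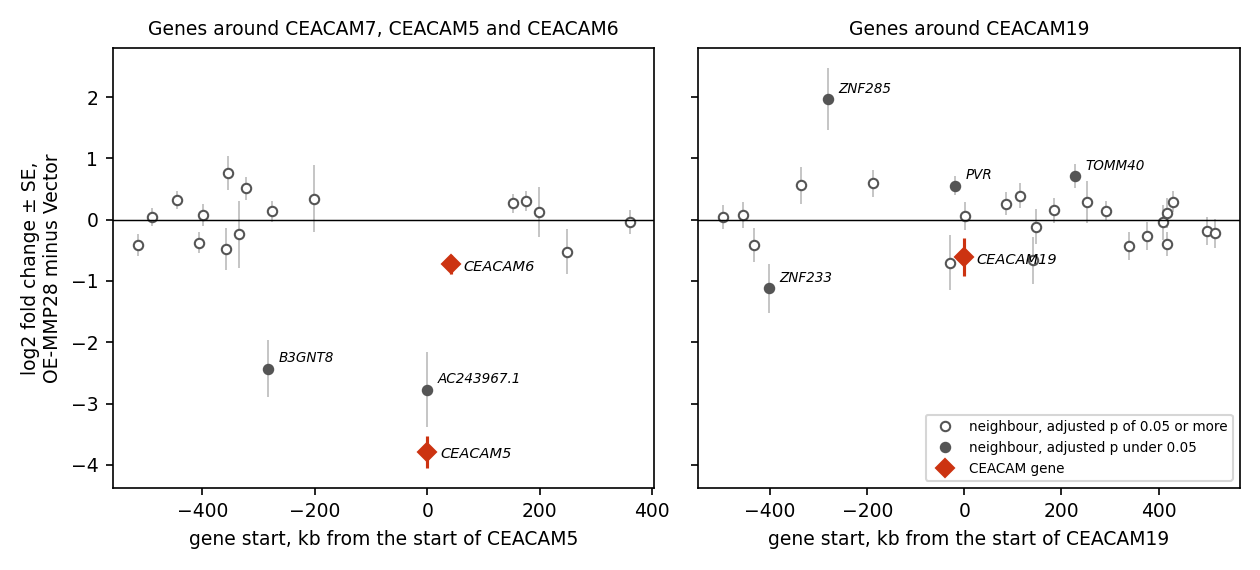
Fitted difference (log2, OE-MMP28 minus Vector, ± SE) of tested genes by the distance of their start, in kb, from that of CEACAM5 (left) and of CEACAM19 (right), filled where the adjusted p was under 0.05. Most neighbours lie around 0. On the left B3GNT8 lies at -2.43, AC243967.1 at -2.77 and CEACAM5 at -3.79. On the right ZNF285 lies at 1.97 and ZNF233 at -1.12. Genes nearest CEACAM1 are not drawn. All AC243967.1 exon bases lie in CEACAM5 or CEACAM6 exons.

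Because CEACAM5, CEACAM6 and CEACAM7 need a GPI anchor, the genes that build it were examined. Of 28 tested, 5 rose and 1 fell (21.4%, beside 23.4% of all genes), with a median of 0.20. Like the lists below, this one was chosen with earlier results of these data known, so nothing is read from its share. PIGX, which supports the first mannosylation, rose from 10.8 ± 1.15 to 17.7 ± 1.40 FPKM (0.73, SE 0.15, adjusted p = 0.00192). PGAP1, which removes an acyl chain from the finished anchor, fell from 5.60 ± 0.574 to 2.93 ± 0.581 FPKM (-0.92, SE 0.17, adjusted p = 0.000604). PIGB, PIGQ, PIGS and PIGW rose by 0.55 to 0.69, but each lost the call in 2 to 10 of 16 other settings. Without OE-MMP28 replicate 2 only 1 gene of this list rose, and without Vector replicate 3 it was 3.

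Other proteins held by the same anchor moved both ways. Of 30 tested, 6 rose and 5 fell, 36.7%, beside 23.4% of all genes, with a median of 0.0104. As this list was chosen with earlier results of these data known, nothing is read from that share. NT5E, the ecto-enzyme that makes adenosine, rose from 53.8 ± 8.49 to 92.4 ± 12.5 FPKM (0.79, adjusted p = 0.00118), and LYPD3, a Ly6-family surface protein, from 6.18 ± 2.52 to 14.0 ± 1.65 FPKM (1.19, adjusted p = 0.000749). BST2, the interferon-induced protein tetherin, fell from 30.0 ± 1.26 to 4.35 ± 0.879 FPKM (-2.77, SE 0.20, adjusted p = 9.52e-09). LY6E fell from 157 ± 33.3 to 90.5 ± 15.2 FPKM (-0.78, adjusted p = 0.00265) and SMPDL3B, a lipid phosphodiesterase, from 4.15 ± 0.711 to 1.88 ± 0.212 FPKM (-1.13, adjusted p = 0.00121). CD59, VNN1, ULBP1 and CPM also rose, and the ephrins EFNA1 and EFNA3 fell, each with a call lost in 1 to 13 of 16 settings. The abundant CD55, a complement inhibitor, was 210 ± 21.0 and 205 ± 20.9 FPKM and did not pass (-0.03, adjusted p = 0.912). Those rising numbered 3 without Vector replicate 2 or OE-MMP28 replicate 1, and those falling 3 without either of these or OE-MMP28 replicate 2.

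Binding and signalling partners of CEACAM proteins divided evenly. Of 17 tested, 4 rose and 4 fell (47.1%, beside 23.4% of all genes), with a median of 0.19. The list was chosen with earlier results of these data known, so nothing is read from that share either. SRC, a kinase that phosphorylates the CEACAM1 tail, fell from 14.1 ± 0.202 to 7.72 ± 0.785 FPKM (-0.85, SE 0.15, adjusted p = 0.000478), as did LYN (-0.55, adjusted p = 0.0375), the focal adhesion kinase PTK2 (-0.45, adjusted p = 0.0289) and beta-catenin CTNNB1 (-0.47, adjusted p = 0.0226). ANXA2, a membrane-binding annexin, rose from 128 ± 15.2 to 185 ± 12.4 FPKM (0.54, adjusted p = 0.0102), and PXN and HNRNPM rose by 0.57 (adjusted p = 0.00917) and 0.47 (adjusted p = 0.0306). The phosphatases PTPN6 (SHP-1) and PTPN11 (SHP-2) did not pass (-0.17 and 0.26). Only SRC and ANXA2 kept their call under all 16 settings: those rising numbered 1 without Vector replicate 3 or OE-MMP28 replicate 2, and those falling 1 without Vector replicate 3 or OE-MMP28 replicate 3 and 2 without Vector replicate 2 or OE-MMP28 replicate 2.

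Of 10 factors tested that have been tied to CEACAM promoters, 1 passed (23.4% of all genes did). USF2, which binds the E-box, rose by 0.46 (adjusted p = 0.0469) but lost the call in 12 of 16 settings (0.021 to 0.239), and without Vector replicate 2, Vector replicate 3 or OE-MMP28 replicate 2 the count was 0. Without OE-MMP28 replicate 3 the call of USF2 was also lost. Its partner USF1 was 12.8 ± 1.15 and 15.4 ± 0.425 FPKM (0.28, adjusted p = 0.217). SP1 and IRF1 did not pass either (-0.22 and 0.06).

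**Figure D5:**
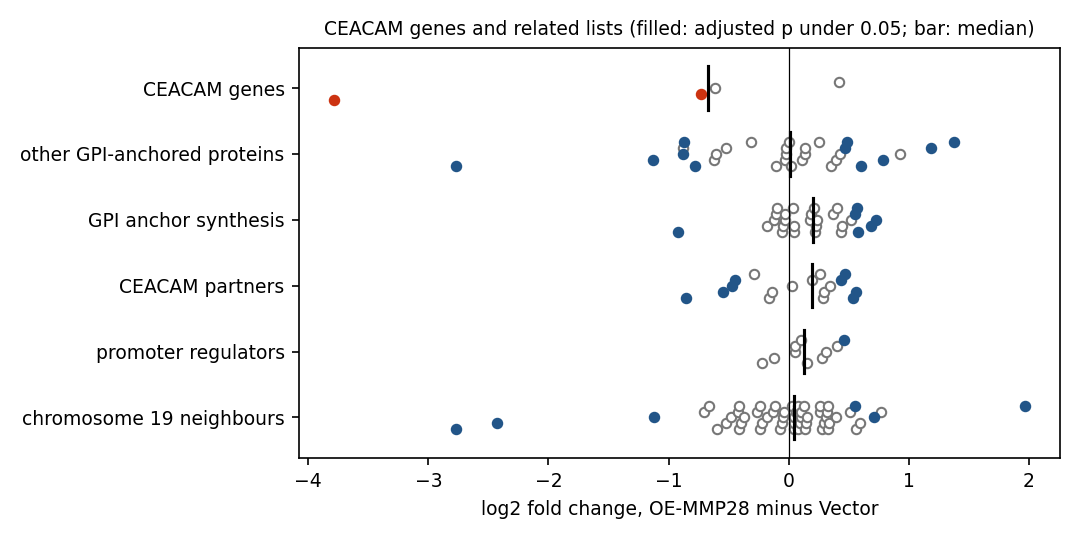
Fitted differences (log2, OE-MMP28 minus Vector) of the tested genes of each list, with 1 point per gene, filled where the adjusted p was under 0.05, and a bar at the median. CEACAM5 at -3.79 stands lowest, followed by AC243967.1, whose exon bases all lie in CEACAM5 or CEACAM6 exons, and BST2 (both -2.77). The list medians lie between 0.0104 and 0.20, apart from -0.67 for the members.

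Genes whose pattern over the 6 libraries was most like that of a member were ranked by the root mean square difference of mean-centred log2 CPM, among the 12258 genes averaging 1 FPKM or more. The nearest to CEACAM5 were SQOR (0.265), TNFRSF19 (0.442), ANKRD20A5P (0.528), PLIN2 (0.564) and SCEL (0.576). SQOR, a mitochondrial sulfide oxidoreductase, stood at 2.39, 4.12 and 3.21 FPKM in Vector and 0.307, 0.204 and 0.173 FPKM in OE-MMP28. CEACAM6 was 1.55 from CEACAM5 on the same measure. The nearest to CEACAM6 were DUSP16 (0.039), ACBD5 (0.0434), SOS1 (0.0577), ADD3 (0.0737) and ITGB6 (0.0767), and CEACAM19 (0.332) was nearer to it than CEACAM1 (0.602). No shared function or control is implied by this likeness.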

How the data were processed

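Total RNA of 6 AsPC-1 samples, 3 Vector and 3 OE-MMP28, was sequenced, and the labels gave the groups and replicate numbers. The authors deposited 1 table of raw read counts per gene and of FPKM values, that is counts scaled to exon length and library total. The submitters' processing notes name HISAT2 2.0.5 and featureCounts 1.5.0-p3, and the strand setting was not given in the sources used here. Gene identifiers and coordinates were those of GENCODE 29 on GRCh38 for all 58735 genes. The deposited table also held the authors' own comparison (fold changes with raw and adjusted p-values), which was not used, and 0 unmapped per-sample columns.

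The CEACAM members and all gene lists were chosen with earlier results of these data known. The design names limma for FPKM and edgeR where counts are present. Counts were tested with edgeR 4.0.16 (R 4.3.3): filterByExpr with a minimum count of 10 and total of 15, TMM scaling, the group as the only term, and Benjamini-Hochberg adjustment over 15319 genes. The SE is the fitted log2 difference divided by the root of its F statistic. Levels are deposited FPKM, and a log2 FPKM ratio was taken within each library. By the naming rule, all members and any list gene whose adjusted p fell under 0.05 could be given singly, with the 5 genes most like CEACAM5 and the 5 most like CEACAM6. Others were chosen as references after their values were seen. Not every list gene that passed is reported here. Of 44 GPI-anchored protein entries, 43 were matched. The limits from 3 counts cover counting error alone, since without molecular identifiers reads need not be separate molecules. Alternatives were DESeq2 1.42.0, other scalings and filters, limma 3.58.1 on voom values and on log2(FPKM + 1) and log2(FPKM + 0.1), the counts without mitochondrial genes, a replicate block, and leaving out each library. The fits were tested on simulated data. Same-numbered samples did not deviate together: correlations of deviations across genes were 0.0407, 0.0149 and -0.162.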

Additional observations from a re-analysis of the deposited data

How the results depend on the processing

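CEACAM5 gave -3.84 to -3.67 and CEACAM6 -0.78 to -0.74 under the settings that kept all libraries; leaving out 1 library gave -4.00 to -3.44 and -0.90 to -0.59. CEACAM1 gave 0.32 to 0.56 and CEACAM19 -0.81 to -0.21 when 1 library was left out, the smallest CEACAM19 value coming without Vector replicate 2. With all libraries CEACAM19 gave -0.66 to -0.24, the latter with limma on log2(FPKM + 1). Members past the threshold and higher numbered 1, CEACAM1, under limma voom and under the replicate block, and 0 to 1 when 1 library was left out. With 1 library left out, genes called numbered 985 to 1916 higher and 1044 to 1949 lower, and 933 to 1409 past an absolute log2 difference of 1, which became 276 with limma on log2(FPKM + 1), where a pseudocount shrinks low genes. GPI anchor synthesis genes rising numbered 3 with upper-quartile scaling, 2 with limma on log2(FPKM + 1) or log2(FPKM + 0.1), 3 without mitochondrial genes and 1 to 5 with 1 library left out. For other GPI-anchored proteins, leaving out 1 library gave 3 to 8 rising and 3 to 5 falling. Partners rising numbered 2 under both limma FPKM fits; with 1 library left out, 1 to 4 rose and 1 to 4 fell. The regulator count was 0 under DESeq2 size factors, upper-quartile scaling, both other filters, limma voom, both limma FPKM fits and without mitochondrial genes, and 0 to 1 with 1 library left out. Neighbours rising numbered 5 with limma on log2(FPKM + 0.1) and 1 to 6 with 1 library left out. Of 32 named list genes, 21 lost their call in at least 1 setting and 0 reversed; the causes were not tested.

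The samples share only a number, so the replicate block was an alternative alone. It gave CEACAM5 -3.78, CEACAM6 -0.74, CEACAM1 0.43 and CEACAM19 -0.55, and 1844 genes called higher and 1841 lower. Depth limits CEACAM7 and 30 other family genes, which had too few counts for a test.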
